A study of Homo sapiens with 54 samples.

Results

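The 6 libraries described here came from A549 human lung cancer cells that stably expressed USP18 and were treated for 48 h with 1 µM of the compound coded CP14 (3 libraries) or 1 µM of the compound coded CP18 (3 libraries). They were chosen by their labels from a series of 54 libraries in 18 groups and pooled as 6, because the question was what the lowest dose of both compounds had in common. The first control was the 3 libraries of the same USP18-expressing cells (USP18 cells) given the solvent DMSO. As a second control served the 3 libraries of USP18 cells treated with CP2 at 2 µM, a different compound at a different dose, so it is not a matched comparison. Libraries of A549 cells with an empty vector, given DMSO or 1 µM of either compound, and of both cell types at 2.5 and 5 µM served for comparison. The study sought inhibitors of the enzyme USP18 in lung cancer cells, and the labels give its compounds by code names only. All groups share the A549 background, the 48 h of treatment and the solvent, and the USP18 cells owe their USP18 level to an introduced expression vector. Nothing in the labels says whether replicates were separate cultures, so the p-values below measure the spread between samples, which may be technical.

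USP18 is a protease that removes ISG15, a ubiquitin-like protein, from other proteins, and it also restrains signalling from the type I interferon receptor. Interferon induces ISG15, the enzymes that attach it and USP18 itself, so the gene is part of a feedback loop. A549 is a line of alveolar carcinoma cells with high activity of the stress regulator NRF2, and it lacks the CDKN2A locus. Most markers fitted the label of an epithelial lung line, and a few of other cell types were also detected. Of 8 markers of an epithelial lung line all were measured, led by KRT8. Their summed level ran from 10202 to 11188 CPM (counts scaled to a common library total) in the 6 treated libraries and from 10082 to 10329 CPM with DMSO. Against DMSO 2 of the 8 were called higher (25%) and 0 lower, beside 9.94% and 10.6% of all genes tested. CDKN2A and CDKN2B had 0 counts in all 12 libraries of these 4 groups. The lung surfactant genes SFTPA1 and SFTPB, the T cell gene CD3E and the fibroblast gene DCN were at 0 as well, and the pan-leukocyte gene PTPRC never exceeded 1 count in a library. Other markers of those lists were detected and not all were level. The alveolar type II markers summed to between 35.9 and 41.6 CPM at 1 µM and between 43.1 and 46.0 CPM with DMSO, without overlap. Such separation from DMSO was common, as 19.8% of all genes tested showed it in either direction. The alveolar type II sums came mostly from the lipid transporter ABCA3 (means of 35.8 and 41.8 CPM), and 1 of 3 tested members was called lower. NAPSA also had a lower mean at 1 µM (0.992 and 1.12 CPM), whereas LAMP3 had a higher one (1.80 and 1.63 CPM). Of 2 haematopoietic markers tested 1 was called higher, the lysosomal protein CD68 having means of 36.9 and 33.3 CPM. Means went the other way for CD14 (2.35 CPM at 1 µM and 2.47 CPM with DMSO) and LYZ (0.101 and 0.162 CPM). All 3 fibroblast markers tested had a negative change (median -0.39) and none was called. Means were 2.59 CPM at 1 µM and 3.34 CPM with DMSO for the collagen COL3A1, 4.65 and 4.71 CPM for COL1A1 and 0.538 and 0.753 CPM for the matrix protein LUM. The 4 endothelial markers had too few counts to be tested, with mean sums of 0.244 CPM at 1 µM and 0.443 CPM with DMSO.

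Both compounds at 1 µM moved the transcriptome of USP18 cells broadly and by small amounts. Most tested genes of DNA replication, of cytosolic and mitochondrial ribosomal proteins, of the proteasome and of the heat shock list were called higher than with DMSO, and most of the unfolded protein response list, NR4A2, NR4A3 and USP18 were called lower. Genes with a short exonic length (bases covered by annotated exons) went up more often. Genes with a long exonic length went down more often. In edgeR's quasi-likelihood test with Benjamini-Hochberg adjustment, 3188 of 15489 genes tested (20.6%) had an adjusted p below 0.05 in the pooled comparison with DMSO, 1540 higher (9.94%) and 1648 lower (10.6%). The median size of the change among called genes was only 0.17 on the log2 scale, and 39 genes (0.252%) also changed more than the study's limit of 1 on that scale, 23 up and 16 down. All 6 treated libraries lay beyond all 3 DMSO libraries in the same direction for 3066 genes (19.8%). In bulk RNA a lower level from fewer cells of a kind and a lower level per cell cannot be told apart. Without DMSO replicate 1 the 3188 fell to 2119. The 39 became 121 when every gene with a count was tested, 6 when at least 10 counts were required in every library, 5 with DESeq2 and 63 in a fit of all 54 libraries.

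Against CP2 at 2 µM the pooled libraries differed at 2483 genes (16%), 1209 higher (7.81%) and 1274 lower (8.23%). The controls themselves differed from each other at 128 genes (0.826%), 38 higher and 90 lower with CP2. A change against both controls in the same direction was found for 1735 genes (11.2%), 822 up and 913 down. These were 54.4% of the genes called against DMSO and 69.9% of those called against CP2, and 7 genes were called in opposite directions. Both counts use the same 6 treated libraries. With CP2 replicate 1, 2 or 3 left out, 1714, 1694 or 1438 genes differed from CP2 and 1285, 1241 or 1121 from both controls, so the loss of any of the 3 lowered the counts and that of replicate 3 most. The 128 genes between the controls became 294 when only their 6 libraries were fitted, 217 with every counted gene tested and 69 in the fit of all 54 libraries, and they fell to 74, 72, 73 and 75 without DMSO replicate 2, DMSO replicate 3, CP2 replicate 1 and CP2 replicate 2. Taken alone, CP14 differed from DMSO at 2316 genes (15%) and CP18 at 2680 genes (17.3%). These fell to 1541 and 1758 without DMSO replicate 1, that for CP14 to 1508 without CP14 replicate 1, and that for CP18 to 1522 without CP18 replicate 3.

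USP18 (ENSG00000184979.9, GRCh38 chromosome 22, 18150118 to 18177397) was itself lower at 1 µM. Its level with DMSO was 1309, 1297 and 1333 CPM, and with CP2 it was 1213, 1259 and 1235 CPM. In the 6 treated libraries it ran from 953 to 1059 CPM with a median of 1012 CPM, below every library of both controls. The change was -0.37 ± 0.02 (SE) on the log2 scale against DMSO (edgeR adjusted p = 1.13e-13) and -0.29 ± 0.02 against CP2 (adjusted p = 1.55e-10). Most of this RNA comes from the vector, as empty-vector cells given DMSO had a mean of 10.8 CPM, so its level reports on the transgene more than on the cell's own gene. USP41, a near-identical copy of USP18 to which reads may be assigned in error, fell by 0.59 ± 0.07 (adjusted p = 6.81e-07) and had 0 CPM in empty-vector cells with DMSO, so its change is not separate evidence. Across doses of the same cells, in a scaling over all 54 libraries, mean USP18 was 1045 CPM at 1 µM CP14, 1190 CPM at 2.5 µM and 2041 CPM at 5 µM, and it was 988, 1067 and 1121 CPM at the same doses of CP18.

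Among genes with a mean log2 CPM of at least 1, the limit used here for naming genes because larger changes occurred at lower counts, the largest falls against DMSO included signalling molecules, receptors and early-response transcription factors. RASD1, a small GTPase of the Ras family, had 14.2, 14.5 and 16.3 CPM with DMSO and from 5.65 to 8.61 CPM (median 7.11) at 1 µM, a change of -1.09 ± 0.10 (adjusted p = 2.51e-09). The growth factor gene BMP6 had 22.8, 20.2 and 20.2 CPM with DMSO and from 9.45 to 12.9 CPM (median 12.0) with treatment, a change of -0.87 ± 0.08 (adjusted p = 4.95e-09). NR4A2 (ENSG00000153234.14, chromosome 2, 156324437 to 156342348), an orphan nuclear receptor that many stimuli induce within minutes, had 23.0, 23.6 and 22.9 CPM with DMSO and from 11.6 to 14.5 CPM (median 13.1) at 1 µM. The treated and DMSO libraries did not overlap in any of these genes, which the rule for naming required. The change of NR4A2 was -0.82 ± 0.07 (adjusted p = 3.11e-10), and its relative NR4A3 changed by -0.82 ± 0.11 (adjusted p = 1.63e-06). CP2 lowered the same genes in part. With CP2, RASD1 had 8.38, 7.56 and 8.29 CPM, which overlapped the treated libraries. Neither RASD1 (-0.19, adjusted p = 0.251) nor NR4A3 (0.01, adjusted p = 0.972) was called against CP2. BMP6 and NR4A2 were lower at 1 µM than with CP2 too, by -0.33 ± 0.09 (adjusted p = 0.00731) and -0.32 ± 0.07 (adjusted p = 0.00251).

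Other large falls were in the cell adhesion gene CHL1, the hormone receptor genes GIPR and SSTR2, the glycosyltransferase gene MGAT4C and the pseudogenes SMG1P5 and STRA6LP. CHL1 had 50.4, 48.8 and 53.2 CPM with DMSO, 42.7, 42.0 and 47.1 CPM with CP2, and from 28.8 to 36.6 CPM (median 30.9) at 1 µM. It changed by -0.68 ± 0.07 against DMSO (adjusted p = 1.65e-05) and by -0.47 ± 0.07 against CP2 (adjusted p = 0.000701). MGAT4C changed by -0.70 ± 0.08 and -0.57 ± 0.08 against the same controls (adjusted p = 1.07e-07 and 1.28e-05), and GIPR by -0.69 and -0.45 (adjusted p = 0.00019 and 0.0174). SSTR2 changed by -0.67 against DMSO (adjusted p = 0.00163), SMG1P5 by -0.80 (adjusted p = 0.0149) and STRA6LP by -0.70 (adjusted p = 0.0432), and none of these 3 was called against CP2. The call of STRA6LP ended under 13 of 21 alternative settings, that of SMG1P5 under 2 and that of SSTR2 under 1.

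Under the same rule for naming, which excludes overlap with DMSO, the largest rises were mostly of genes with low counts. APOE, the lipid carrier apolipoprotein E, had 6.35, 5.34 and 5.90 CPM with DMSO, 10.0, 8.21 and 8.09 CPM with CP2 and from 8.01 to 13.9 CPM (median 10.3) at 1 µM. It was higher than with DMSO by 0.81 ± 0.10 (adjusted p = 4.99e-07) and did not pass the test against CP2 (0.23, adjusted p = 0.0987). TRPM2, a calcium channel opened by ADP-ribose, had 5.30, 4.80 and 4.99 CPM with DMSO, 6.74, 6.06 and 5.40 CPM with CP2 and from 7.06 to 8.52 CPM (median 7.62) at 1 µM. Every treated library exceeded every control library, and TRPM2 rose by 0.60 ± 0.11 against DMSO (adjusted p = 9.11e-05) and 0.34 ± 0.10 against CP2 (adjusted p = 0.0221). BST1, a surface enzyme that makes cyclic ADP-ribose from NAD, rose by 0.62 (adjusted p = 0.00314), the homeobox gene NKX2-8 by 0.65 (adjusted p = 0.018), the annexin gene ANXA8L1 by 0.63 (adjusted p = 0.00576) and the kinase gene STK33 by 0.60 (adjusted p = 0.0123). None of these was called against CP2, which does not show that they were equal. The remaining 4 of the 10, AC145207.5, AP000439.2, AC026464.6 and AC005332.5, rose by 0.82, 0.73, 0.66 and 0.62 and stayed below 7 CPM. The calls of AC005332.5 and STK33 ended under 2 alternatives each, and those of AP000439.2 and NKX2-8 under 1.

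Under the same rule for naming, rises against both controls were led, after TRPM2, by MT-ND6, OXTR, ZNF239 and FOSL1. FOSL1, a subunit of the transcription factor AP-1, had 14.5, 12.5 and 15.3 CPM with DMSO, 15.4, 15.4 and 16.4 CPM with CP2 and from 18.1 to 21.7 CPM (median 19.5) at 1 µM, with no overlap. It rose by 0.49 ± 0.08 against DMSO (adjusted p = 1.54e-05) and 0.34 ± 0.07 against CP2 (adjusted p = 0.00186). OXTR, the oxytocin receptor, rose by 0.53 and 0.46 (adjusted p = 0.000964 and 0.00492), and the zinc finger gene ZNF239 by 0.49 and 0.38 (adjusted p = 0.00366 and 0.0306). MT-ND6, a complex I subunit and the protein encoded on the other strand of mitochondrial DNA from the rest, rose by 0.54 and 0.35 (adjusted p = 0.00458 and 0.04), and its call against DMSO ended under 1 alternative.

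**Figure D1:**
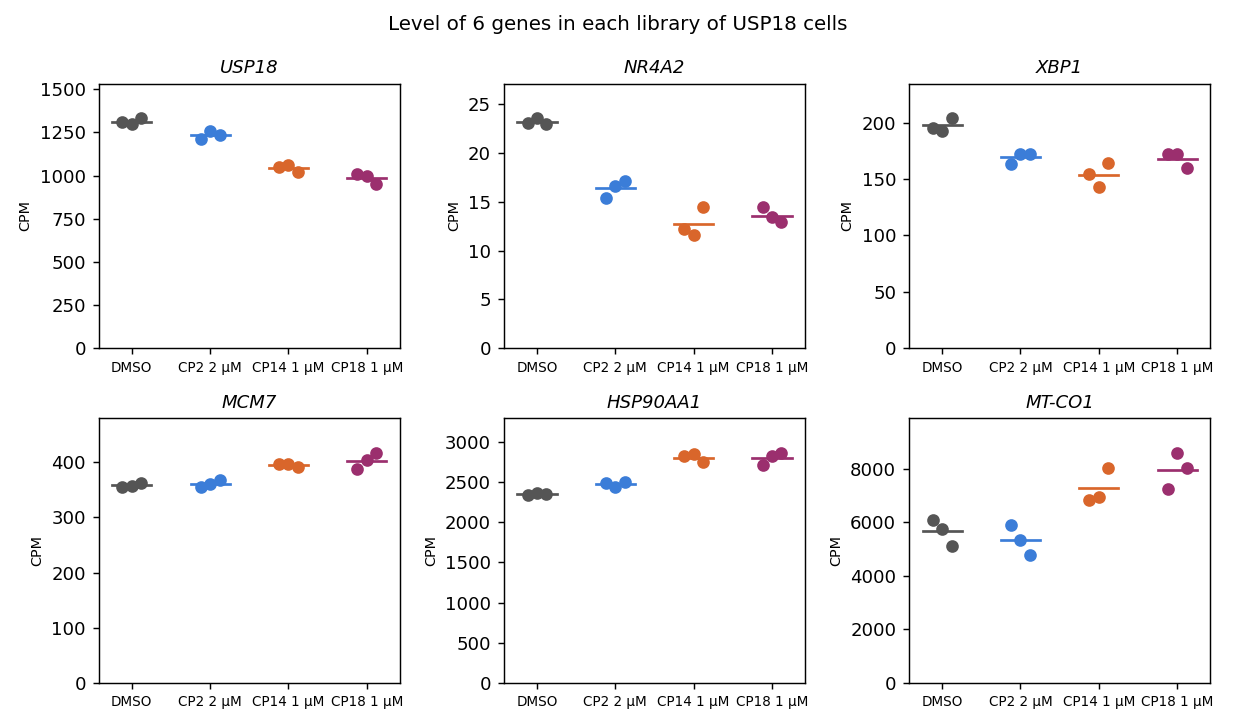
Level of 6 genes in CPM (vertical axis, from 0) in each library of USP18 cells with DMSO, 2 µM CP2, 1 µM CP14 and 1 µM CP18, with points for libraries and bars for means of 3. USP18 and NR4A2 lie below both controls at 1 µM, MCM7, HSP90AA1 and MT-CO1 lie above them, and XBP1 overlaps the CP2 libraries.

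S phase genes, which supply nucleotides, load the replicative helicase and copy DNA, are switched on by E2F transcription factors as cells enter the cycle. Of 41 such genes tested, 32 were higher (78.0%) and 1 lower (2.44%) at 1 µM than with DMSO, beside 9.94% and 10.6% of all genes. The median change was 0.15 beside 0.00 over all genes. The same counts, 32 and 1, and a median of 0.15 were found against CP2, beside 7.81% and 8.23% of all genes. CP2 against DMSO called none of the 41 (median 0.01). MCM7, a helicase subunit, had 355, 357 and 363 CPM with DMSO, 354, 361 and 367 CPM with CP2 and from 387 to 417 CPM (median 396) at 1 µM. It rose by 0.15 ± 0.02 against DMSO (adjusted p = 3.12e-05) and 0.14 ± 0.02 against CP2 (adjusted p = 0.000134). FEN1, the nuclease that trims Okazaki fragments, had 108, 107 and 107 CPM with DMSO, 118, 113 and 111 CPM with CP2 and from 119 to 135 CPM (median 129) with treatment. This was the most changed member, at 0.27 ± 0.03 and 0.18 ± 0.03 (adjusted p = 5.71e-07 and 0.000381). PCNA, the sliding clamp of DNA polymerases, rose by 0.13 ± 0.02 and 0.09 ± 0.02 (adjusted p = 0.000363 and 0.00707), and TK1, which salvages thymidine, by 0.12 ± 0.03 and 0.14 ± 0.03 (adjusted p = 0.008 and 0.00357), with the call of TK1 against DMSO lost under 1 alternative.

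Because the S phase genes moved together, their promoters were searched for the letters of E2F-type sites, TTTCCCGC, TTTCGCGC, TTTGCCGC and TTTGGCGC, on both strands. The sequences, from RefSeq (GRCh38.p14), cover 250 bases before to 50 after each gene's start and were chosen after the values were seen. Of 10875 genes tested that had a promoter in the collection, 579 (5.32%) held a match, as did 19 of the 35 S phase genes with a promoter (54.3%) and 15 of the 28 of these that were higher against DMSO (53.6%). Matches are in capitals in the promoters below, of PCNA and MCM7, the members with the highest levels, and of FEN1, the most changed member. PCNA had 1 match, at -59 from the start, MCM7 had 2, at -187 and -9, and FEN1 and TK1 had none of these letters in the window. The share with a match was much the same in the higher genes as in the whole list, so it describes the list and not the shift. A match describes the sequence and does not show that a factor bound there.
PCNA, chr20:5126573-5126872, minus strand: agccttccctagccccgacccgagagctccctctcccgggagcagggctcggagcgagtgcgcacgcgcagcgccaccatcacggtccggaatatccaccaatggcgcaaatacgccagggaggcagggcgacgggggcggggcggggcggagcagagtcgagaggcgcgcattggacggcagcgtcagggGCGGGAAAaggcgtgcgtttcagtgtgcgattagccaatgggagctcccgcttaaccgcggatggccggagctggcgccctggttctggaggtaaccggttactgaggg
MCM7, chr7:100101348-100101647, minus strand: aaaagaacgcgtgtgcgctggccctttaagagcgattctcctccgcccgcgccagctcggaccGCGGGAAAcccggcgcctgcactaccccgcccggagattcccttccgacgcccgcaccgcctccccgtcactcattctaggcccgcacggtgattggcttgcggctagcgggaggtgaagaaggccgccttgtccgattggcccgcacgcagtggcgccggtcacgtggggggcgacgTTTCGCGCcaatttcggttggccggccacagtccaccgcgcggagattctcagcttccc
FEN1, chr11:61792661-61792960, plus strand: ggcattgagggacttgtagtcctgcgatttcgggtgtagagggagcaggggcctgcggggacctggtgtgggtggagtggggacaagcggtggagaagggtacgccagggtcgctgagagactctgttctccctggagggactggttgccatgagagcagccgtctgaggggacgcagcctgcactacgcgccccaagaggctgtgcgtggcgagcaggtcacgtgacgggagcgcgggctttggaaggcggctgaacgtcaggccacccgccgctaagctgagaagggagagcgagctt

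Fewer calls were made among genes of the later cell cycle, and the 2 lists were not tested against each other. Of 38 G2/M genes, 14 were higher (36.8%) and 1 lower (2.63%) than with DMSO (median 0.07), beside 9.94% and 10.6% of all genes. Against CP2, 11 were higher and 4 lower (median 0.04). The cyclin gene CCNB1 had 241, 241 and 238 CPM with DMSO and from 251 to 275 CPM (median 265) at 1 µM, a rise of 0.14 ± 0.03 (adjusted p = 0.000279). UBE2C, which serves the ubiquitin ligase of mitotic exit, rose by 0.27 ± 0.04 (adjusted p = 2.33e-06). TOP2A and CKS2, the other members of highest level, did not pass the test at -0.03 and 0.04. Of 34 CEP genes, whose proteins build centrosomes and cilia, 2 were higher (5.88%) and 4 lower (11.8%), beside 9.94% and 10.6% of all genes, with a median of -0.03 that turned to 0.02 once each library was corrected for its trend over GC content and length. CEP55, which acts in the separation of daughter cells, rose by 0.22 (adjusted p = 1.76e-06), and CEP44 fell by 0.29 (adjusted p = 0.00168).

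Among genes for making and degrading proteins, most calls were of higher levels. All genes had 9.94% called higher and 10.6% lower against DMSO, and 7.81% and 8.23% against CP2. All 78 genes of mitochondrial ribosomal proteins had a positive fold change against DMSO, 57 of them past the test and 0 below it, with a median of 0.15, and against CP2 42 were higher and 0 lower (median 0.13). MRPL51 had 159, 161 and 160 CPM with DMSO, 164, 169 and 170 CPM with CP2 and from 177 to 193 CPM (median 182) at 1 µM, and it rose by 0.19 ± 0.03 and 0.12 ± 0.03 (adjusted p = 4.42e-06 and 0.00197). The most changed member, MRPL1, rose by 0.28 and 0.24 (adjusted p = 0.00211 and 0.0105), and MRPL12 by 0.16 and 0.19 (adjusted p = 0.000275 and 9.19e-05), with its call against DMSO lost under 2 alternatives. Of 86 cytosolic ribosomal protein genes, 49 were higher and 1 lower than with DMSO (median 0.08), and 38 were higher and 2 lower than with CP2 (median 0.06). RPS2 had 1776, 1792 and 1755 CPM with DMSO, 1815, 1817 and 1816 CPM with CP2 and from 1836 to 1944 CPM (median 1911) with treatment, a rise of 0.10 ± 0.02 against DMSO (adjusted p = 0.000598) and 0.07 ± 0.02 against CP2 (adjusted p = 0.0227). With GC content and length corrected, the counts against DMSO became 42 and 0 for the mitochondrial and 33 and 3 for the cytosolic ribosome, with medians of 0.13 and 0.05.

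Among 46 proteasome subunits, which form the protease that degrades ubiquitin-tagged proteins, 27 were higher and 1 lower than with DMSO (median 0.10), and 21 and 1 against CP2 (median 0.10). PSMB5, a catalytic subunit, had 198, 196 and 202 CPM with DMSO, 202, 199 and 200 CPM with CP2 and from 207 to 227 CPM (median 218) at 1 µM, without overlap. It rose by 0.13 ± 0.03 and 0.12 ± 0.03 (adjusted p = 0.000438 and 0.00197). PSMB8, an interferon-inducible subunit, rose by 0.31 against DMSO (adjusted p = 0.0114), with the call lost under 2 alternatives, and was at 0.23 against CP2 (adjusted p = 0.068). Of 25 LSM and SNRP genes, which encode proteins of the splicing snRNPs, 14 were higher and 0 lower than with DMSO (median 0.14) and 7 and 0 than with CP2 (median 0.08), among them SNRPG at 0.16 against DMSO (adjusted p = 0.000279). Translation initiation factors had 17 of 55 higher (30.9%) and 6 lower (10.9%) than with DMSO, beside 9.94% and 10.6% of all genes. Against CP2 these were 14 and 6. EIF5A, which carries the modified amino acid hypusine, rose by 0.16 and 0.14 (adjusted p = 1.7e-05 and 0.000167), and EIF4EBP1, a repressor of cap-dependent translation, by 0.27 and 0.22 (adjusted p = 4.06e-05 and 0.000553), with its call against DMSO lost under 2 alternatives. Nuclear-encoded subunits of the respiratory chain had 27 of 82 higher and 0 lower than with DMSO and 22 and 0 against CP2, of which ATP5MF, of ATP synthase, rose most, by 0.21 and 0.12 (adjusted p = 5.65e-06 and 0.00441). With GC content and length corrected the respiratory counts against DMSO were 11 and 1, and NDUFA1, at 0.18 (adjusted p = 0.00134), turned to -0.04.

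The heat shock list holds chaperones and co-chaperones of the HSF1 response. In it 14 of 21 genes were higher (66.7%) and 1 lower (4.76%) than with DMSO (median 0.13), and 12 and 1 against CP2 (median 0.12). All genes had 9.94% and 10.6% against DMSO, and 7.81% and 8.23% against CP2. HSP90AA1 had 2338, 2366 and 2352 CPM with DMSO, 2494, 2444 and 2500 CPM with CP2 and from 2711 to 2863 CPM (median 2819) at 1 µM, above both controls in every library. It rose by 0.25 ± 0.02 (adjusted p = 3.02e-10) and 0.18 ± 0.02 (adjusted p = 1.67e-06). The HSP70-type chaperone HSPA8 rose by 0.18 and 0.21 (adjusted p = 1.24e-05 and 4.53e-06), and its co-chaperone DNAJA1 by 0.27 and 0.21 (adjusted p = 2.28e-09 and 9.46e-07), whereas HSP90AB1 was not called (0.04, adjusted p = 0.252). The unfolded protein response list holds genes induced by misfolded protein in the endoplasmic reticulum. Of its 21 genes, 1 was higher (4.76%) and 13 lower (61.9%) than with DMSO (median -0.11), whereas against CP2 2 were higher and 2 lower (9.52% each way, median 0.00). CP2 itself lowered 4 of them (19.0%) against DMSO and raised 0 (median -0.09), beside 0.581% and 0.245% of all genes. XBP1, a transcription factor of this response, had 196, 193 and 204 CPM with DMSO, 164, 172 and 172 CPM with CP2 and from 143 to 172 CPM (median 162) at 1 µM. It changed by -0.30 ± 0.04 against DMSO (adjusted p = 2e-06) and was not called against CP2 (-0.08, adjusted p = 0.158). HSPA5, the main chaperone of that compartment, changed by -0.09 against DMSO (adjusted p = 0.0037, lost under 2 alternatives) and CALR, which binds calcium and folds glycoproteins there, by -0.11 (adjusted p = 0.000643), and neither was called against CP2.

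NRF2 targets protect against oxidants and electrophiles, and A549 cells hold them high without treatment. Of 31 targets, 14 were higher (45.2%) and 4 lower (12.9%) than with DMSO (median 0.07), beside 9.94% and 10.6% of all genes. Against CP2, 11 were higher (35.5%) and 3 lower (9.68%), with a median of 0.03, beside 7.81% and 8.23% of all genes. With GC content and length corrected only 8 were higher and 5 lower against DMSO. HMOX1, the enzyme that breaks down haem, had 60.2, 57.0 and 58.2 CPM with DMSO, 63.8, 60.5 and 57.9 CPM with CP2 and from 65.8 to 80.6 CPM (median 71.1) at 1 µM. It rose by 0.30 ± 0.05 and 0.24 ± 0.05 (adjusted p = 0.000239 and 0.00229). The ferritin genes FTL and FTH1 rose by 0.10 and 0.09 against DMSO (adjusted p = 0.000957 and 0.00406), but FTL was at 0.00 (-0.0026) with the correction, and the call of FTH1 was lost under 3 alternatives. NQO1, the quinone reductase, was not called, at 0.03 against DMSO (adjusted p = 0.284) and 0.00 against CP2 (adjusted p = 0.95).

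Targets of the aryl hydrocarbon receptor, which responds to many planar ring compounds, separated the controls. Of 8 tested, 4 were higher (50%) and 1 lower (12.5%) at 1 µM than with DMSO, beside 9.94% and 10.6% of all genes. Their median was 0.09, and 0.03 without DMSO replicate 1, where 9 were tested. Against CP2, 0 were higher and 4 lower (50%), with a median of -0.18, beside 7.81% and 8.23% of all genes. CP2 raised 3 of them (37.5%) against DMSO and lowered 0 (median 0.29), beside 0.245% and 0.581% of all genes. CYP1B1, an oxidase that the receptor induces, had 98.2, 92.2 and 99.9 CPM with DMSO, 126, 125 and 133 CPM with CP2 and from 96.7 to 126 CPM (median 112) at 1 µM. It lay between the controls, 0.19 ± 0.04 above DMSO (adjusted p = 0.0017) and -0.21 ± 0.04 from CP2 (adjusted p = 0.00062). ALDH3A1, an aldehyde dehydrogenase, likewise was 0.15 above DMSO and -0.15 from CP2 (adjusted p = 7.13e-05 and 0.000119), with the call against DMSO lost under 1 alternative.

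Of 29 immediate early genes, 5 were higher (17.2%) and 10 lower (34.5%) than with DMSO, beside 9.94% and 10.6% of all genes. Their median of -0.01 changed sign without CP14 replicate 1 or CP18 replicate 1 (0.01 each) and was -0.05 with GC content and length corrected. Against CP2, 8 were higher (27.6%) and 2 lower (6.90%), with a median of 0.06, beside 7.81% and 8.23% of all genes. CP2 lowered 6 of them (20.7%) against DMSO and raised 0, beside 0.581% and 0.245% of all genes. The phosphatase gene DUSP1 had 110, 118 and 123 CPM with DMSO, 97.4, 95.1 and 96.0 CPM with CP2 and from 98.8 to 108 CPM (median 101) at 1 µM. It changed by -0.20 ± 0.04 against DMSO (adjusted p = 0.000155) and was not called against CP2 (0.09, adjusted p = 0.111). DUSP4, another phosphatase of MAP kinases, was lower than both controls, by -0.22 and -0.19 (adjusted p = 3.02e-05 and 0.000223).

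Few interferon-stimulated genes, the class most tied to USP18, were called. Of 38 tested, 2 were higher and 2 lower than with DMSO (5.26% each way, beside 9.94% and 10.6% of all genes), with a median of -0.01 that was positive under 4 of 21 alternatives (up to 0.03), and 0 were higher and 3 lower than with CP2 (median -0.05). Taken alone, CP14 had 3 higher and 1 lower than with DMSO (median 0.05), beside 7.36% and 7.59% of all genes. CP18 had 1 higher and 4 lower (median -0.03), beside 8.48% and 8.83% of all genes. Between the compounds 1 of the 38 genes was called, higher with CP14. The difference was positive, uncalled members included, for 29 of 38 (median 0.09). STAT2, which carries the interferon signal to DNA, had 39.1, 39.4 and 39.0 CPM with DMSO, 34.7, 35.8 and 36.8 CPM with CP2 and from 31.9 to 36.6 CPM (median 33.1) at 1 µM. It changed by -0.23 ± 0.04 against DMSO (adjusted p = 0.000271) and not past the test against CP2 (-0.10, adjusted p = 0.129). The members with the highest levels, IFITM2, UBE2L6 and IFI35, were at -0.12, 0.17 and -0.06 against DMSO and were not called there, and IFITM2 was lower than with CP2 (-0.19, adjusted p = 0.0166).

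Most metabolic and other classes had calls in both directions. Over all genes, 9.94% were higher and 10.6% lower than with DMSO, and 7.81% and 8.23% against CP2. Of 32 hypoxia and glycolysis genes, 4 were higher (12.5%) and 10 lower (31.25%) than with DMSO (median -0.07), and 3 and 3 against CP2. The glycolytic enzyme gene TPI1 was among the higher ones at 0.13 and 0.16 (adjusted p = 4.84e-05 and 1.05e-05). Of 26 genes of cholesterol synthesis and uptake, 2 were higher (7.69%) and 6 lower (23.1%) than with DMSO (median -0.04), and 1 and 7 against CP2 (median -0.03). STARD4, a sterol carrier, was at -0.27 and -0.26 (adjusted p = 2.48e-05 and 7.83e-05). ATF4 targets, which serve amino acid supply, had 7 of 30 higher (23.3%) and 3 lower (10%) than with DMSO and 10 and 2 against CP2. In that list PSAT1, of serine synthesis, rose by 0.17 and 0.17 (adjusted p = 2.12e-05 and 7.59e-05). SLC38A2, a carrier of neutral amino acids, had 1364, 1359 and 1397 CPM with DMSO, 1257, 1296 and 1369 CPM with CP2 and from 900 to 1054 CPM (median 990) at 1 µM, a change of -0.48 ± 0.05 and -0.41 ± 0.05 (adjusted p = 0.000215 and 0.000866). It was the largest fall in that list. Of 230 solute carrier genes in all, 11 were higher (4.78%) and 33 lower (14.3%) than with DMSO (median -0.04), beside 9.94% and 10.6% of all genes, and 11 and 28 against CP2 (median -0.02), and the amino acid transporter SLC6A14 was lowest against DMSO at -0.66 (adjusted p = 0.00157). Of 30 p53 targets, 8 were higher (26.7%) and 4 lower (13.3%) than with DMSO, and 5 and 4 against CP2. BAX, which opens the outer mitochondrial membrane, was at 0.17 and 0.10 (adjusted p = 0.000113 and 0.021). Of 11 metallothionein and zinc genes, 4 were tested and 1 was lower, the zinc exporter gene SLC30A1 at -0.15 (adjusted p = 0.00119).

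**Figure D2:**
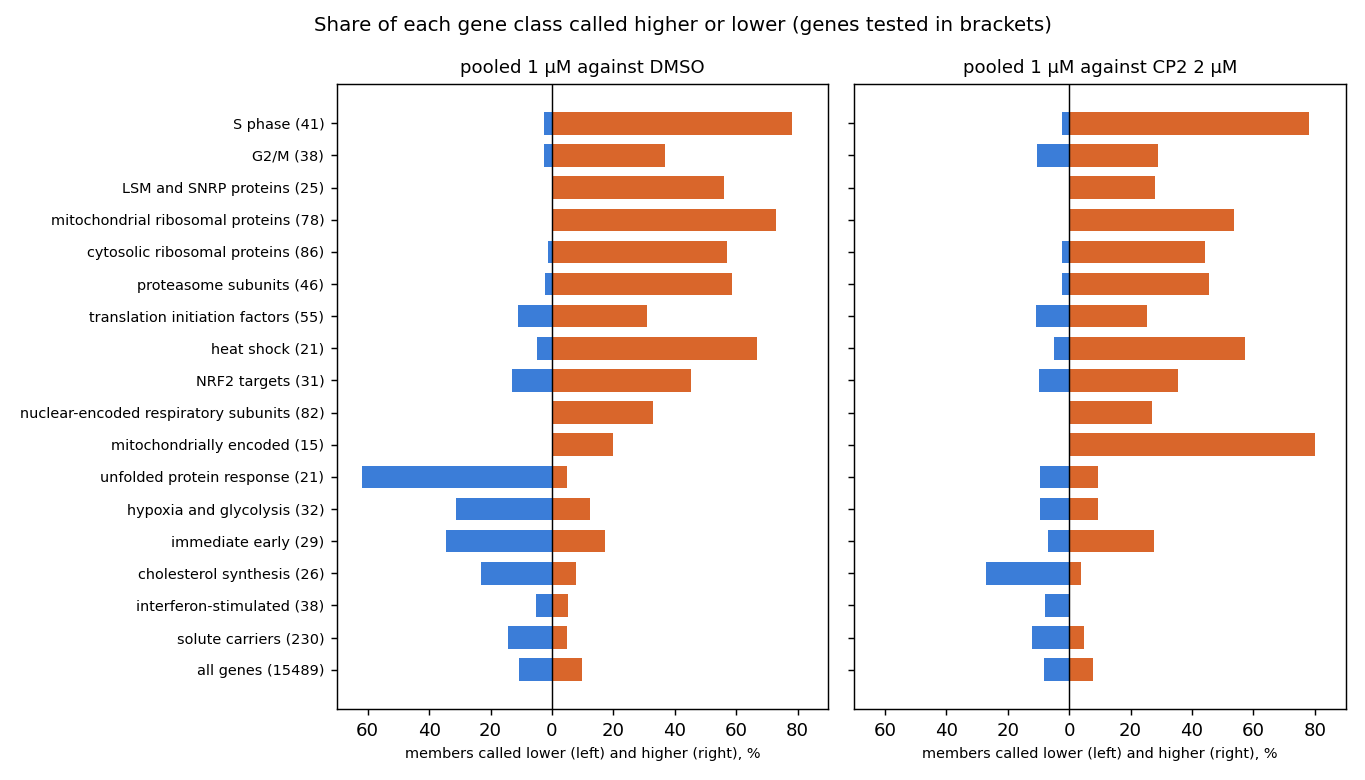
Share of the tested members of each gene class called higher (right) or lower (left) at adjusted p below 0.05, in percent, for the pooled 1 µM libraries against DMSO and against 2 µM CP2, with the number tested in brackets. S phase genes show 32 of 41 higher against either control, and the unfolded protein response shows 13 of 21 lower against DMSO but 2 against CP2.

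Transcripts of the mitochondrial genome were compared as shares of the libraries. The sample labels give poly(A) RNA while the methods of the paper describe depletion of ribosomal RNA, so what the shares of mitochondrial, histone and untailed RNA measure is uncertain. The mitochondrially encoded genes made up 3.63% ± 0.339 (SD, n = 6) of all counts at 1 µM, 2.99% ± 0.288 (SD, n = 3) with DMSO and 2.77% ± 0.249 (SD, n = 3) with CP2, and all 6 treated libraries exceeded all 3 libraries of each control. The exact two-sided permutation test gave p = 0.0238 for both comparisons, the smallest that 84 arrangements of 6 against 3 allow, and 0.0612 once adjusted over the 18 library measures tested, which is not below 0.05. Of 15 genes tested, 3 were called higher (20%) and 0 lower against DMSO (median 0.31, and 0.17 with GC content and length corrected). Against CP2 these were 12 (80%) and 0 (median 0.40). Of all genes, 9.94% and 7.81% were called higher against DMSO and CP2. MT-CO1, a subunit of cytochrome c oxidase, had 6101, 5748 and 5127 CPM with DMSO, 5885, 5352 and 4761 CPM with CP2 and from 6819 to 8590 CPM (median 7625) at 1 µM. It rose by 0.43 ± 0.09 and 0.51 ± 0.10 (adjusted p = 0.014 and 0.00809), with the call against DMSO lost under 2 alternatives.

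Cytosolic ribosomal protein genes took 6.58% ± 0.116 (SD, n = 6) of counts at 1 µM, 6.32% ± 0.0615 (SD, n = 3) with DMSO and 6.40% ± 0.0365 (SD, n = 3) with CP2 (exact permutation p = 0.0238 and 0.0476, adjusted 0.0612 and 0.0952). Processed pseudogenes, copies of mature mRNAs whose counts may come from reads of their parent genes, took 0.168% ± 0.0024 (SD, n = 6) against 0.158% ± 0.0021 and 0.160% ± 0.0009 (SD, n = 3 each), with all 6 above all 3 of each control (exact permutation p = 0.0238, adjusted 0.0612, for both). Of 243 tested, 9 were higher (3.70%) and 2 lower (0.823%) against DMSO, beside 9.94% and 10.6% of all genes. Their median of 0.15 came to 0.00 with GC content and length corrected (2 higher, 3 lower) and to -0.0024 when a replicate block was added. RNAs that carry no poly(A) tail, such as the signal recognition particle RNA RN7SL1, ran from 0.0079% to 0.0952% of counts at 1 µM, from 0.0048% to 0.0117% with DMSO and from 0.0051% to 0.0138% with CP2 (exact permutation p = 0.0476 and 0.119, adjusted 0.0952 and 0.195). CP14 replicate 3 was highest by far, and none of the 13 such genes passed the test, although 13 of 13 had a positive change (median 1.74, and 0.66 without that library). Without CP14 replicate 3, 3245 genes differed from DMSO, 2521 from CP2 and 1801 from both, so the numbers of calls did not fall. Whether the same genes were called was not tested. The median change of clustered histone genes against DMSO went from 0.34 to 0.09 without that library. Long noncoding RNAs took 0.743% of counts against 0.748% and 0.758% (exact permutation p = 0.643 and 0.238). Of 1388 tested, 34 were higher (2.45%) and 26 lower (1.87%) against DMSO, below the 9.94% and 10.6% of all genes. NORAD, a long RNA that binds Pumilio proteins, changed by -0.16 and -0.15 (adjusted p = 3.78e-05 and 0.000132), and GAS5, a host of small nucleolar RNAs, by -0.13 and -0.20 (adjusted p = 0.00254 and 4.25e-05), with its call against DMSO lost under 1 alternative. Clustered histone genes, whose mRNAs normally end without a poly(A) tail, had 1 of 28 higher and 1 lower against DMSO. These were 3.57% each way, also below the shares of all genes. The 2 called histone genes were HIST1H2BD at 0.40 (adjusted p = 0.00573, lost under 1 alternative) and HIST1H3E at -0.47 (adjusted p = 0.014, lost under 2).

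Exonic length, the number of bases covered by a gene's annotated exons, ordered the shift across the whole transcriptome. Its median was 3596 bases among genes higher than with DMSO, 8118 bases among lower ones and 4816 bases among those not called. Against CP2 the medians were 3436, 8812 and 4844 bases. In 10 bins of equal gene number, the median log2 change against DMSO went from 0.09 in the shortest bin (up to 1679 bases) to -0.07 in the longest (from 11714 bases), and the share called lower from 1.17% to 25.2%. Against CP2 the median went from 0.08 to -0.07 and the share called lower from 1.04% to 22.3%. CP2 against DMSO had medians between -0.01 and 0.01 in all 10 bins. The gradient was present for CP14 alone, from 0.08 to -0.05, and for CP18 alone, from 0.11 to -0.09. It held within protein-coding genes, from 0.09 to -0.07 against DMSO.

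GC content varied with the shift to a lesser degree. Genes higher than with DMSO had a median exonic GC content of 49.4%, lower ones 44.0% and those not called 48.5%, and against CP2 these were 51.1%, 42.4% and 48.5%. Over 10 bins of GC content the median change went from -0.05 to 0.02 against DMSO and from -0.05 to 0.04 against CP2. Long genes tend to be poor in GC (Pearson r = -0.26 between log2 length and GC content across 15415 genes, which are not independent replicates). When genes were split by both, into 3 classes of length and 3 of GC content, the length gradient was there in each GC class. Short genes had medians of 0.06, 0.07 and 0.06 from low to high GC, and long genes -0.07, -0.04 and -0.03. Of 2389 long genes of low GC content, 24.4% were lower and 5.15% higher than with DMSO, and of 2285 short genes of high GC content 2.19% were lower and 13.9% higher.

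**Figure D3:**
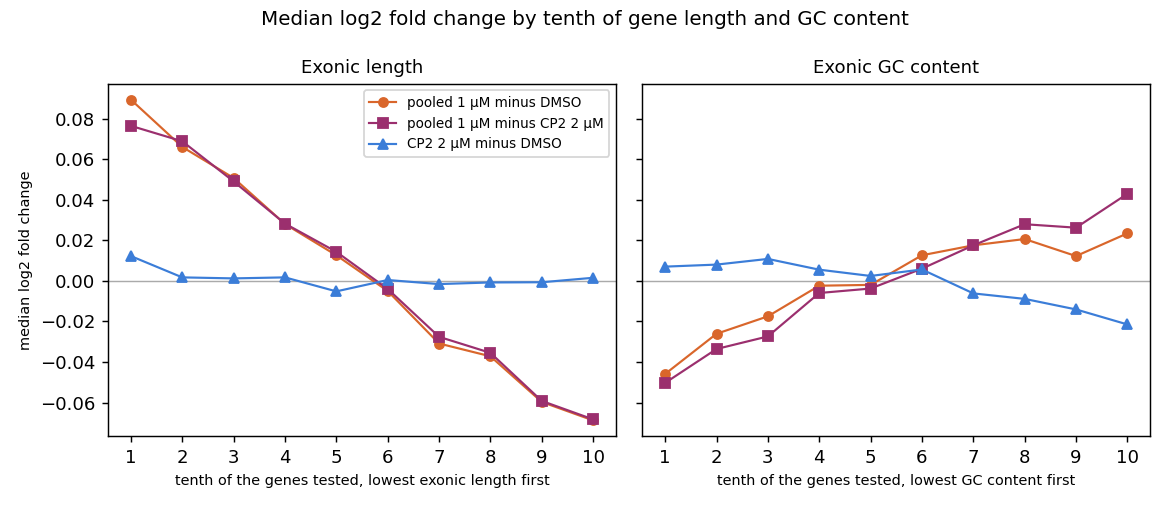
Median log2 fold change (vertical axis) of the genes tested in 10 bins of exonic length (left) and of exonic GC content (right), lowest bin first, for pooled 1 µM minus DMSO, pooled 1 µM minus CP2 and CP2 minus DMSO. Against either control the medians go from about 0.09 or 0.08 in the shortest genes to -0.07 in the longest, while CP2 minus DMSO stays near 0.

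Measured library by library, the length trend separated the groups. For each library the log2 CPM, centred on each gene's mean over the 12 libraries, was regressed on log2 length and GC content together. Slopes over length, in log2 CPM per doubling, were 0.0272, 0.0144 and 0.0239 with DMSO and 0.0174, 0.0186 and 0.0226 with CP2. Because each gene was centred on these same libraries, the slopes sum to 0 and only differences between groups carry meaning. In CP14 libraries they were -0.0082, -0.0103 and -0.0279, and in CP18 libraries -0.0192, -0.0263 and -0.0322, so that all 6 treated libraries lay below all 3 of each control. The difference in means was -0.0426 from DMSO and -0.0403 from CP2 (exact two-sided permutation p = 0.0238 for each, the smallest possible, adjusted 0.0612). The slope over GC content, per 10 percentage points, was 0.0061 ± 0.0175 (SD, n = 6) at 1 µM, and it differed from DMSO by 0.0062 (exact permutation p = 0.524) and from CP2 by 0.0183 (exact permutation p = 0.214), so no difference in GC trend was shown at this sample size. The GC slopes with CP2 were -0.0002, -0.0007 and -0.0357, and without CP2 replicate 3, the lowest, the difference from CP2 was 0.0072. The difference from DMSO was 0.0022 without CP18 replicate 3 and 0.0115 without CP14 replicate 2. With length left out of the regression, the difference in GC slope was 0.0213 from DMSO and 0.0326 from CP2 (exact permutation p = 0.143 and 0.0952).

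**Figure D4:**
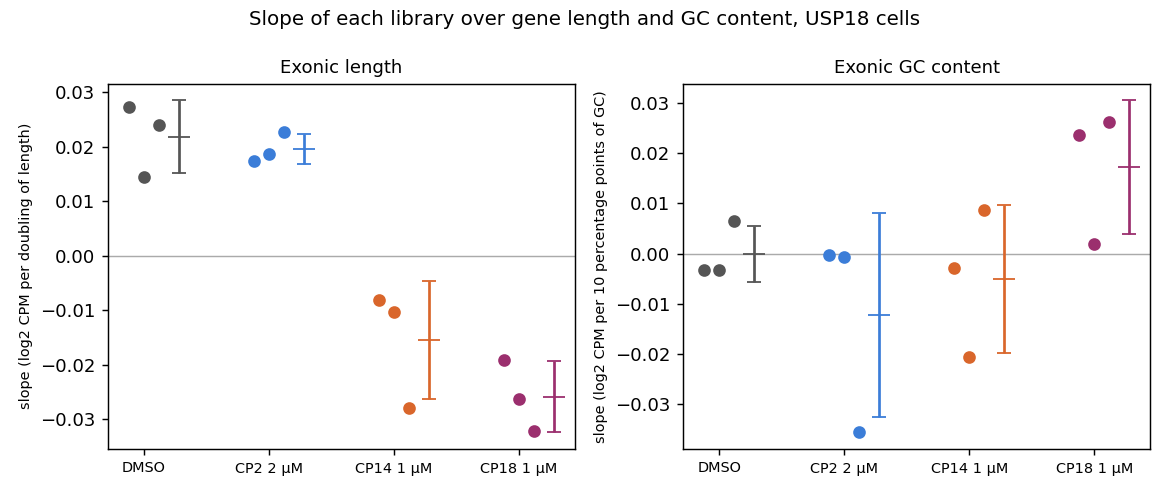
Slope of each library's centred log2 CPM over exonic length (left, per doubling) and over exonic GC content (right, per 10 percentage points) in USP18 cells, with points for libraries and the mean and SD of 3 beside them. Length slopes of all 6 libraries at 1 µM lie below those of all 6 control libraries, while GC slopes overlap, and centring sets the 0.

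Part of the gene-level shift went with this trend. When each library was corrected for its smooth trend over GC content and length, 2668 genes differed from DMSO, now 1549 higher and 1119 lower in place of 1540 and 1648, and 1866 differed from CP2, 1183 higher and 683 lower in place of 1209 and 1274. Changes against both controls then numbered 1261, 828 higher and 433 lower in place of 822 and 913, and 1124 when a replicate block was added. Of the 3188 genes called against DMSO, 2190 (68.7%) kept their call and direction, and of the 2483 against CP2, 1444 (58.2%). Against DMSO and against both controls, only the lower calls became fewer. After the correction, 29 S phase genes were called higher and 1 lower, heat shock genes had 15 and 1, proteasome subunits 21 and 0, LSM and SNRP genes 13 and 0, and the unfolded protein response 0 and 9. Among 415 ZNF genes, 16 were higher (3.86%) and 25 lower (6.02%) than with DMSO before the correction, below the 9.94% and 10.6% of all genes. With it these became 16 and 14, and the median of -0.01 turned to 0.01. Whether the length trend arose in the cells or in library preparation was not tested.

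The compounds differed little from each other at 1 µM. CP14 and CP18 differed at 46 genes (0.297%), 25 higher with CP14 and 21 higher with CP18, and this count was unstable. It became 131 with every counted gene tested, 72 with DESeq2, 26 with a replicate block, 8 with GC content and length corrected, 11 with both, 8 with only their 6 libraries fitted and 12 with all 54. Without CP14 replicate 1, CP14 replicate 2 or CP18 replicate 3 it was 1, 3 or 4, and it was 27, 29 and 27 without DMSO replicates 1, 2 and 3. C1R, a protease of the complement cascade, had 12.0, 11.9 and 10.7 CPM with CP14 and 7.29, 8.62 and 6.51 CPM with CP18, a difference of 0.62 ± 0.11 (adjusted p = 0.0106), beside 8.51, 7.54 and 7.73 CPM with DMSO. HACD4, of fatty acid elongation, was higher with CP14 by 0.62 ± 0.11 (adjusted p = 0.0145) and APOE by 0.54 ± 0.11 (adjusted p = 0.0161). Higher with CP18 were MTCO1P12, a nuclear copy of the mitochondrial gene MT-CO1, at -0.63 ± 0.11 for CP14 minus CP18 (adjusted p = 0.0145), the readthrough transcript SLX1A-SULT1A3 at -0.53 ± 0.12 (adjusted p = 0.0474) and the calcium-binding gene S100A4 at -0.28 ± 0.05 (adjusted p = 0.0224). S100A4 averaged 76.0 ± 5.59 CPM with CP14 and 92.3 ± 3.95 CPM with CP18 (SD, n = 3 each), and pooled against DMSO it was not called (0.05, adjusted p = 0.532). A median standard error of 0.08 for this difference means that a gene not called may still differ by amounts like those of the shared shift.

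The shift at 1 µM was different in empty-vector cells. There the pooled libraries differed from DMSO at 122 of 16058 genes (0.76%), 62 higher (0.386%) and 60 lower (0.374%). The test of the difference between the cell types (an interaction over 18 libraries) called 1591 genes (9.91%). Of these, 654 (4.07% of all genes tested) were more positive and 937 (5.84%) more negative in USP18 cells. Without DMSO replicate 3 of the empty-vector cells the 1591 became 891, and a fit of all 54 libraries gave 1011. With GC content and length corrected, 1065 were called, 658 more positive and 407 more negative. The interaction was positive for 14 of 41 S phase genes and negative for 0, for 45 and 0 of 86 cytosolic ribosomal protein genes, for 19 and 0 of 78 mitochondrial ribosomal protein genes, for 8 and 0 of 22 heat shock genes and for 7 and 0 of 15 mitochondrially encoded genes, and it was negative for 8 and positive for 0 of 21 genes of the unfolded protein response. RNA without a poly(A) tail differed too, with 3 of 14 genes called positive and 0 negative and a median interaction of 4.81. Its median change was -2.90 in empty-vector cells, where 0 of the 14 were called. Whether the quality of the libraries contributed was not tested. HSP90AA1 had an interaction of 0.22 (adjusted p = 0.000187), NR4A2 of -0.59 (adjusted p = 0.00024), SLC38A2 of -0.45 (adjusted p = 0.00116) and USP18 of -0.35 (adjusted p = 0.000178). Immediate early genes did move in empty-vector cells, where 8 of 30 were lower (26.7%) and 0 higher, beside 0.374% and 0.386% of all genes. The interaction was positive for 7 of the 30 (23.3%) and negative for 4 (13.3%), with a median of 0.10. All genes had 4.07% and 5.84%. DUSP1 was among the lower ones in empty-vector cells at -0.19 (adjusted p = 0.000538) and had no called interaction (-0.01, adjusted p = 0.901). The length slope went the other way in these cells, with a mean of 0.0205 at 1 µM and 0.0021 with DMSO when gene means were taken over the 18 libraries, a choice made after seeing the data, and all 6 lay above all 3 (exact permutation p = 0.0238). In USP18 cells the same calculation gave -0.0289 and 0.0149. The difference between the cell types in this slope was not tested.

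Among USP18 cells at other doses, the slope was lowest at 1 µM. Over all 54 libraries, with gene means taken over all of them, the mean length slope in USP18 cells was -0.0258 ± 0.0120 (SD, n = 3) at 1 µM CP14, 0.0122 at 2.5 µM and 0.0228 at 5 µM, and it was -0.0324 ± 0.0055 (SD, n = 3) at 1 µM CP18, -0.0147 at 2.5 µM and 0.0005 at 5 µM. It was 0.0150 with DMSO, 0.0108 at 2 µM CP2 and -0.0053 at 5 µM CP2. These means were not tested against each other, and in CP2 at 5 µM in empty-vector cells they spread from -0.0426 to 0.0054 within the group.

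**Figure D5:**
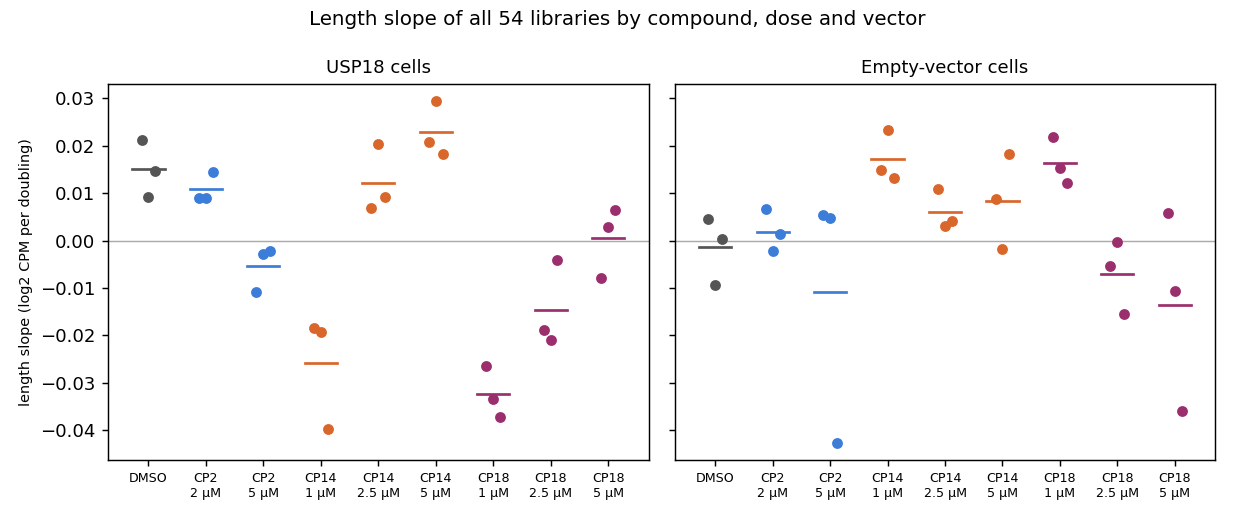
Length slope of all 54 libraries (vertical axis, log2 CPM per doubling of exonic length, gene means over all 54) by compound and dose in USP18 cells (left) and empty-vector cells (right), with points for libraries and bars for means of 3. In USP18 cells the libraries at 1 µM CP14 and CP18 are the lowest groups, with means of -0.0258 and -0.0324, and in empty-vector cells the same treatments have means of 0.0171 and 0.0164.

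Quantitative PCR was used in the study to follow a set of genes, and these were looked up here. All 13 were in the table, and 9 had enough counts to be tested. At 1 µM NR4A2, USP18 and USP41 were lower than with either control, and 6 were not called against either. These 6, ATP6V1B1, WASF3, ENTPD1, PARP8, IL31RA and DCC, had at most 47 counts in any of the 12 libraries. Their changes against DMSO were 0.13, -0.04, 0.23, 0.04, 0.33 and -0.52, with standard errors from 0.24 to 0.29, so changes smaller than that of NR4A2 may have been missed in them at this depth.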

How the data were processed

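The values were expected counts (RSEM gene estimates); per the labels, the authors trimmed reads of poly(A) RNA with cutadapt 1.18, aligned them with STAR 2.7.0f to hg38 and estimated counts with RSEM 1.3.1. They were rounded here. In R 4.3.3, edgeR 4.0.16 (filterByExpr by group, TMM scaling, robust quasi-likelihood test, Benjamini-Hochberg adjustment) was fitted to the 12 libraries of 4 groups, and to 18 for the interaction. CPM used TMM scaling, and log2 CPM a prior count of 2. DESeq2 1.42.0 (Wald test) and limma 3.58.1 (loaded with edgeR) served alternatives. Exonic length and GC content came from GENCODE 44 (GRCh38), and corrections used splines with 5 degrees of freedom. Library measures were compared by exact two-sided permutation over samples, adjusted over 18 tests. Named genes were the 10 largest called changes each way against DMSO and 5 each way against both controls. Both choices required a mean log2 CPM of at least 1 and no overlap between the treated and the DMSO libraries. Also named were 3 each way between compounds, the highest-level and most changed members of each list, and the genes followed by quantitative PCR. The text describes part of the named genes. Members and lists were chosen with earlier results of these data known. Python 3.11.15 and matplotlib 3.10.9 drew the figures.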

Additional observations from a re-analysis of the deposited data

Results flagged for a closer look

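Of 149 values tested by Dixon's test in the 6 pooled libraries (139 named genes and library measures), 2 library measures and 11 genes had an extreme library, where about 1 in 20 is likely by chance. CP14 replicate 3 was high in histones (0.01435% of counts), RNA without poly(A) (0.09522%), RN7SK (93.34 CPM), RF00003 (6.203 CPM) and STAT2 (36.61 CPM). CP14 replicate 2 stood apart in TOP2A (761.6 CPM) and SRSF5 (145.3 CPM). CP18 replicate 3 stood apart in AC145207.5 (4.194 CPM), HSP90AB1 (2354 CPM), FTH1 (3194 CPM), PSMB6 (240.9 CPM) and EIF4A1 (1505 CPM), and CP18 replicate 2 in AP000439.2 (2.045 CPM). The change at 1 µM differed between USP18 cells and empty-vector cells at 1591 genes in a test of the difference. The length slope rose by 0.01834 in empty-vector cells while it fell in USP18 cells, and that difference was not tested.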

How the results depend on the processing

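Most counts of calls stayed within 1.5 times their value under other scaling, filters, tools, fits and left-out libraries, and the others are given below. Of the gene fold changes 119 values lost their call, 36 gained one and 41 changed sign. Replicates share only a number: of 18 same-number pairs r ran from -0.139 to 0.0708, 0 were over 0.1, and 2 of 12 libraries were closest to their own number. With a replicate block 3042 genes differed from DMSO and 1600 from both controls. A replicate block moved CP14 against CP18 to 26. The GC and length correction was estimated on the genes it then tests, so it may remove biology that follows length.

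CP2 against DMSO was 217 with every counted gene, 294 with its own groups only and 69 with all 54 libraries. CP14 against CP18 was 131 with every counted gene, 72 with DESeq2, 8 with the correction, 11 with correction and block, 8 with its own groups only and 12 with all 54. Changes over the fold limit numbered 121 with every counted gene, 6 with 10 counts in every library, 5 with DESeq2 and 63 with all 54. Both controls gave 1124 with correction and block, and the interaction 1011 with all 54.

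With each library left out in turn, the lowest and highest were as follows. Pooled 1 µM against DMSO, 2119 to 3259 (2119 without DMSO replicate 1). Pooled 1 µM against CP2 2 µM, 1438 to 2596 (1438 without CP2 2 µM replicate 3). CP2 2 µM against DMSO, 72 to 190 (74 without DMSO replicate 2, 72 without DMSO replicate 3, 73 without CP2 2 µM replicate 1, 75 without CP2 2 µM replicate 2). CP14 1 µM against CP18 1 µM, 1 to 62 (27 without DMSO replicate 1, 29 without DMSO replicate 2, 27 without DMSO replicate 3, 1 without CP14 1 µM replicate 1, 3 without CP14 1 µM replicate 2, 4 without CP18 1 µM replicate 3). CP14 1 µM against DMSO, 1508 to 2631 (1541 without DMSO replicate 1, 1508 without CP14 1 µM replicate 1). CP18 1 µM against DMSO, 1522 to 2740 (1758 without DMSO replicate 1, 1522 without CP18 1 µM replicate 3). Pooled 1 µM against DMSO over the fold limit, 30 to 55. Pooled 1 µM against both controls, 1121 to 1886 (1121 without CP2 2 µM replicate 3). Low dose by vector interaction, 891 to 1727 (891 without DMSO, empty vector replicate 3). Slope over GC content, pooled 1 µM minus DMSO, 0.002222 to 0.01148. Slope over length, pooled 1 µM minus DMSO, -0.04803 to -0.04154. Differences in share of counts from DMSO, in percentage points, were protein-coding -0.1467 to -0.05106, lncRNA -0.01138 to -0.0005758, processed pseudogene 0.009327 to 0.01127, mitochondrially encoded 0.4903 to 0.7761, cytosolic ribosomal proteins 0.2243 to 0.2927, replication-dependent histones 0.0004589 to 0.0017, RNA without poly(A) 0.01295 to 0.03041. With a control or treated library of the comparison left out, the smallest p the permutation test allows is 0.0714 and 0.0357, so its result cannot show whether the shares are stable.

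Log2 fold changes against DMSO changed sign as follows, and of these genes only FTL and NDUFA1 had passed the test. With the GC and length correction: S100A4 -0.04449, EBP -0.01954, CKS2 -0.09761, TOP2A 0.008417, IER3 -0.006088, FTL -0.002619, NDUFA1 -0.04151, COX8A -0.1533, HIST1H2BK -0.1073, SLC25A5 -0.01102, SNHG29 0.01331. With the GC and length correction with replicate block: S100A4 -0.0428, EBP -0.01913, CKS2 -0.09688, TOP2A 0.007748, IER3 -0.005466, FTL -0.00259, NDUFA1 -0.04264, COX8A -0.1532, HIST1H2BK -0.11, SLC25A5 -0.01107, SNHG29 0.0132. Without DMSO replicate 1: MT1X -0.05201. Without DMSO replicate 2: HACD4 -0.006404, PARP8 -0.1369, SRSF5 -0.005833. Without DMSO replicate 3: WASF3 0.09766, GDF15 0.02416, CEP85 0.008827. Without CP14 1 µM replicate 1: WASF3 0.03627, PARP8 -0.03642, SRSF5 -0.001839. Without CP14 1 µM replicate 2: CEP85 0.005809. Without CP14 1 µM replicate 3: HACD4 -0.005219, WASF3 0.04315, PARP8 -0.04415, MT1X -0.03341. Without CP18 1 µM replicate 1: WASF3 0.01327, MT1X -0.07339. Without CP18 1 µM replicate 3: WASF3 0.01863, PARP8 -0.06956. The other end over left-out libraries was CEP85 -0.02481, GDF15 -0.03519, HACD4 0.05259, MT1X 0.1126, PARP8 0.1843, SRSF5 0.02955, WASF3 -0.2298.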
